A study of Mus musculus with 12 samples.

Results

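The data are the hippocampal expression profiles of 6 untreated control mice, 6 of the 12 arrays of a study of prenatal ethanol exposure. They were chosen by their labels, which name them as controls that were exposed to nothing, and no array of the ethanol-exposed mice enters a value below. All 6 were male C57BL/6J mice of 12 weeks, an inbred strain, and per the study's methods their dams were given water to drink. Each mouse gave 1 array of hippocampal RNA on a MouseWG-6 v2.0 BeadChip. Mice 1 to 3 lay on chip 1 and mice 4 to 6 on chip 2. The litter of each mouse is not given, so the 6 mice are separate animals that may share litters. There was no second array of any mouse, and the spread between mice and the spread between arrays therefore cannot be told apart.

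The hippocampus holds the pyramidal cells of CA1, CA2 and CA3, the granule cells of the dentate gyrus, inhibitory interneurons and the glia and vessels around them. It lies against a brain ventricle, which is lined by ciliated ependymal cells, and beside the choroid plexus, the secretory epithelium that makes cerebrospinal fluid. The subiculum and the meninges adjoin it, and a dissected piece can hold some of each. In RNA of a whole tissue piece, fewer cells of a type and less RNA per cell cannot be told apart.

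At a detection p under 0.05, 18644 to 20268 of 45281 probes were detected in a mouse, and the median signal before normalisation ranged from 115.7 to 127.5 in mice 1 to 3 and from 96.5 to 102.7 in mice 4 to 6. The 19560 probes detected in at least 3 of the 6 mice stand for 10929 named genes, each read at its brightest probe, and 9640 of these genes were detected in all 6 mice. The label hippocampus was checked on region markers. *C1ql2* of dentate granule cells had a log2 normalised signal of 12.60 ± 0.16 (SD, n = 6), *Fibcd1* of CA1 12.62 ± 0.37 and *Bok* of CA3 11.66 ± 0.22, each detected in all 6 mice. Each lay above the median of its region's markers. Of 13 dentate granule cell markers with a probe, 7 were detected in at least 3 mice, with a median signal of 7.26. All 8 of CA1 (median 10.4) and all 8 of CA3 (9.06) were. Mice 1 and 3 stood apart by the number of genes that were higher in them than in the other mice. In mouse 1, 69 genes and in mouse 3, 102 genes lay over 1 log2 unit above the median of the other mice, against 4 to 21 genes in mice 2, 4, 5 and 6. As far below the median of the others lay 15 genes in mouse 1, 42 in mouse 2, 29 in mouse 3, 35 in mouse 4, 24 in mouse 5 and 7 in mouse 6. Mice 2 and 4 had the most low genes. Counts below are therefore also given without mice 1 and 3, a setting chosen after seeing the data.

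The brightest probes belonged to genes of general cell upkeep and of neurons. *Rplp1*, a protein of the ribosomal stalk, led with 15.66 ± 0.066 log2 units, followed by the iron store *Fth1* (15.61 ± 0.050), the brain creatine kinase *Ckb* (15.60) and *Atp5b* of the mitochondrial ATP synthase (15.58). A probe's brightness also depends on its sequence, so this order is one of probes, not of transcript numbers. The mitochondrial genes *CYTB* (15.45) and *ND4* (15.42), the prion protein gene *Prnp* (15.42) and the tubulin *Tuba1b* (15.32) were among the 25 brightest. So were the ribosomal genes *Rpl41*, *Rps29*, *Rpl38*, *Rps2* and *Rpl9*, the elongation factor *Eef1a1*, the cyclophilin *Ppia*, *Atp5g3* of the ATP synthase, and *Nme7*, *Wbp2* and *Snurf*. *Olfm1*, a glycoprotein secreted by neurons, *Cpe*, which processes neuropeptides, the protease inhibitor *Cst3* and *Mbp* of myelin (14.91 ± 0.13) also ranked there. *Ubb-ps* (15.46) is a pseudogene of a ubiquitin gene, and its probe, like those of ribosomal proteins, may also read near-identical copies.
Of 49 tested genes of cytosolic ribosomal proteins, 36 were among the 500 brightest, as were 23 of 36 of the respiratory chain and 16 of 19 of synaptic vesicles and neuronal calcium signalling. Glycolysis had 9 of 13 and tubulins and the cytoskeleton 8 of 17 members there. These groups were also among the least spread between mice. Their median SDs were 0.0997 (ribosomal), 0.111 (respiratory chain), 0.120 (synaptic), 0.0959 (glycolysis) and 0.127 (cytoskeleton), against 0.171 over all 10929 genes. Bright probes in general had smaller SDs, from a median of 0.294 for genes with a mean under 6 to 0.0942 for those of 14 and over. The arrays were also quantile normalised to a shared set of values, which limits the SD of the brightest probes. By how much was not tested. *Mt1*, which binds zinc and copper, had the largest spread of the 25 brightest. Its signal was 15.56, 15.62, 15.58, 15.36, 15.18 and 15.10 in mice 1 to 6 (SD 0.22), lower in all 3 mice of chip 2, and the chip difference of −0.37 did not pass the test (adjusted p = 0.113 in limma).

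**Figure D1:**
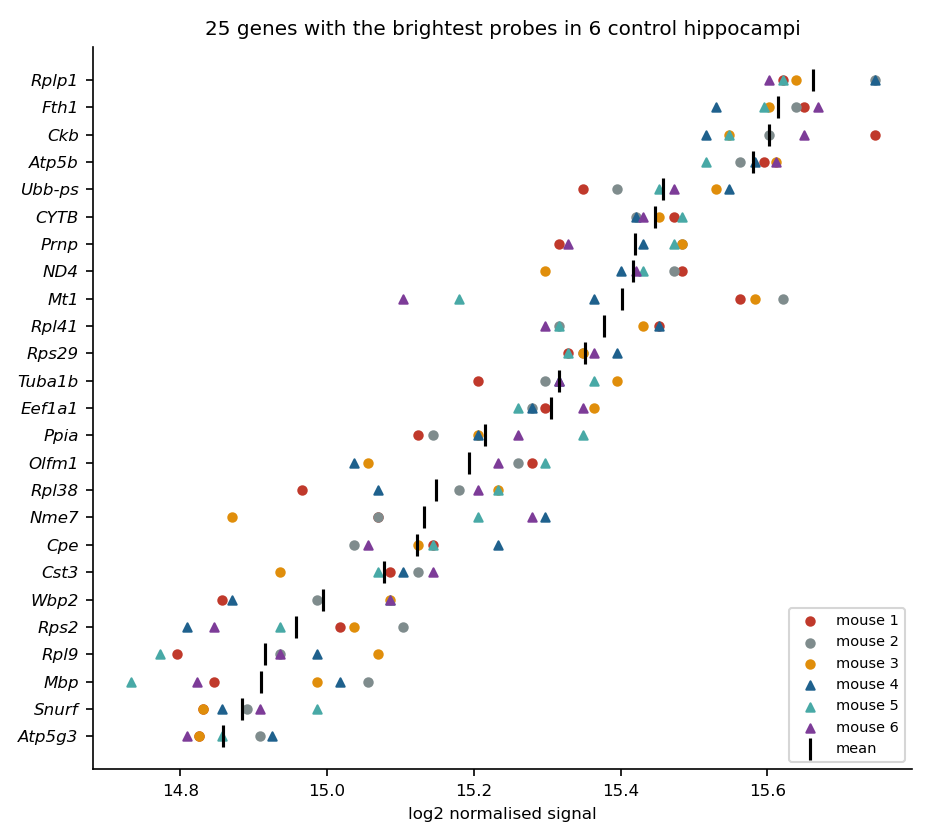
Log2 normalised signal (x axis) of the 25 genes with the brightest probes (y axis), with circles for mice 1 to 3 on chip 1, triangles for mice 4 to 6 on chip 2 and a bar for the mean. The points of most genes lie close together, and those of *Mt1* run from 15.10 to 15.62.

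Among genes with a mean of at least 10, *Morf4l2*, a chromatin protein, had the smallest SD, 0.015. Its signal was 13.75, 13.73, 13.74, 13.77, 13.75 and 13.77 in mice 1 to 6. The next were *Rpl34*, *F8a*, the kinesin *Kif1b*, *Rps29*, *Snn*, *CYTB*, the asparagine synthetase *Asns*, *Sh3gl2* (endophilin A1) of synaptic vesicle recycling and *Rpl32*, with SDs up to 0.028.

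Which genes varied more than genes of like signal was tested with limma's model of variances, with a trend on mean signal and Benjamini-Hochberg adjustment over all probes. Of 19560 probes, 123 (0.629%) and of 10929 genes, 90 (0.823%) passed an adjusted p of 0.05. These 90 genes are called variable below. The measure of a call is the spread of the other genes between the same 6 mice. Without mouse 1, 55 genes passed, and without mice 1 and 3 together, 27 passed, 24 of them among the 90. With median scaling of the arrays in place of quantile normalisation 35 passed, and with a variance model that was not robust to outlying probes, 43. The SD was 1 or more in 26 genes and 0.5 or more in 238. A second tested probe existed for 30 of the variable genes, and in 14 of them another probe passed too.

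**Figure D2:**
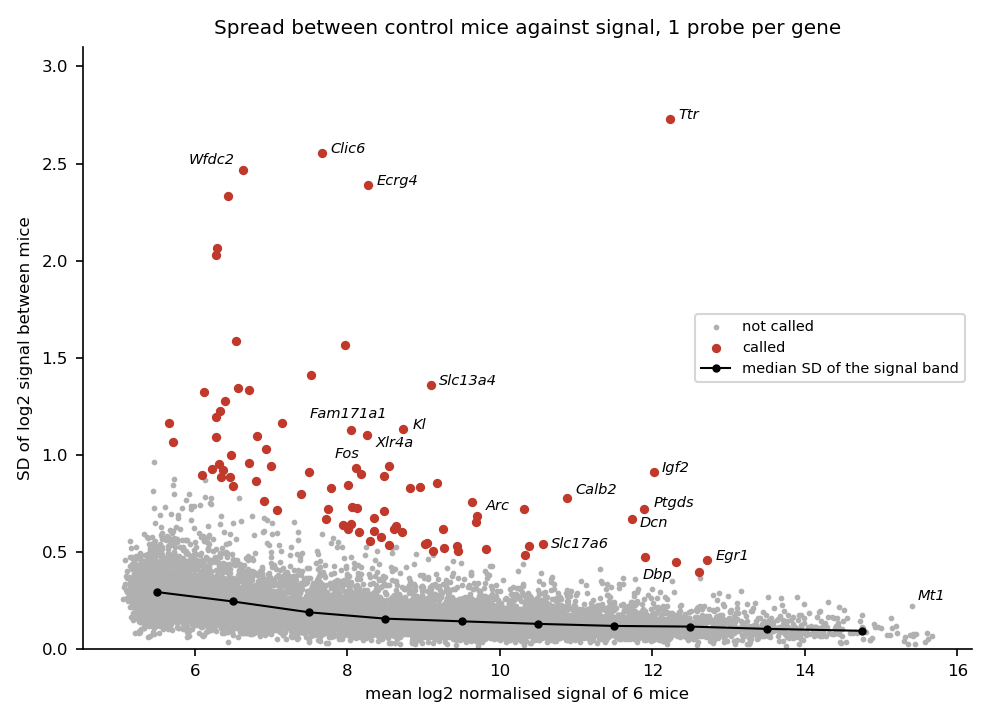
SD of the log2 signal between 6 control mice (y axis) against the mean log2 signal (x axis), 1 point per gene, with the 90 variable (called) genes in red and the median SD of each signal band as a black line. *Ttr*, *Clic6*, *Wfdc2* and *Ecrg4* lie highest, with SDs of 2.39 to 2.73, while the line falls from 0.294 to 0.0942.

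Genes of the choroid plexus had the largest spread. *Ttr* encodes transthyretin, which carries thyroxine in cerebrospinal fluid. Its log2 signal was 15.26, 10.26, 15.14, 13.15, 8.58 and 10.98 in mice 1 to 6. Mice 1 and 3 were high, mouse 4 lay between, and mouse 5 was lowest, a 103-fold range with an SD of 2.73 (adjusted p = 1.92e-10 in limma's variance test). Within each mouse *Ttr* ranked 14th, 2559th, 16th, 270th, 5151st and 1649th of the genes by signal, so it was among the brightest genes in 2 mice only.
*Ecrg4*, which encodes a secreted peptide precursor, had signals of 11.26, 6.97, 11.13, 7.78, 5.47 and 7.02 and a 55.7-fold range. The chloride channel protein gene *Clic6*, detected in 5 mice, had signals of 11.34, 6.01, 10.30, 7.31, 5.19 and 5.87. Mice 1 and 3 were again the highest pair for both genes, and mouse 5 the lowest. The secreted protein gene *Wfdc2* (SD 2.47), the water channel *Aqp1* (2.33, and 2.03 at a second probe), the potassium channel subunit *Kcne2* (2.06) and the folate receptor *Folr1* (2.03) were detected in 3 or 4 mice, so that their ranges are bounds.
*Sostdc1*, an antagonist of BMP and Wnt signals, had an SD of 1.56. The collagen *Col8a2* (1.28), the calmodulin-like *Calml4* (1.20), *Kl* (1.13), the klotho gene, and *Igfbp2* (0.94), which binds insulin-like growth factors, were variable too. Second, dimmer probes of *Col8a2* (0.25) and *Kl* (0.53) did not pass, while that of *Igfbp2* (0.82) did. In all, 12 of 13 tested genes of the choroid plexus list were variable, against 0.823% of all genes, and their median SD was 2.03 against 0.171. The lists were chosen with earlier results of these data known, so this share is a description. *Aqp1*, *Kcne2* and *Folr1*, detected in 3 mice, reached the filter with the help of mice 1 and 3, which also make them variable. Mouse 1 had the highest signal of all 13, and mouse 3 lay above the mean in all 13. The coagulation factor gene *F5*, named after its values were seen, was the member that did not pass (SD 0.70, adjusted p = 0.317). The mean log2 signal over the 13 genes was 10.0, 6.34, 9.35, 6.96, 5.85 and 6.43 in mice 1 to 6.
A further 5 of the 22 list genes were detected in 2 mice only, mice 1 and 3, and were not tested. Among them *Otx2*, a homeobox gene of the choroid plexus epithelium, had signals of 8.80 and 8.06 in mice 1 and 3 and 4.62 to 5.11 in the others, where it was not detected. Leaving out 1 mouse kept 10 to 12 of the 13 genes variable, and 5 were variable among probes detected in all 6 mice. Without mice 1 and 3, 2 remained, *Ttr* (SD 1.89) and *Ecrg4* (0.97).

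Most variable genes shared this pattern of mice. For 51 of the 90, mice 1 and 3 had the 2 highest signals, 56.7% against 7.27% of all 10929 genes. The list genes among them were 12 of the choroid plexus, 5 of cilia, 2 of meningeal fibroblasts and *Dbp* of the circadian clock, and 31 were in none of the lists. *Cox8b*, a subunit of cytochrome c oxidase, had signals of 8.92, 5.20, 8.18, 5.72, 5.54 and 5.67. Its 2 high mice lay at least 5.50-fold above the others. The retinol dehydrogenase *Rdh5* (SD 1.41), the sulphate transporter *Slc13a4* (1.36), the RNA-binding protein gene *Rbm47* (1.35), the heparan sulphatase *Sulf1* (1.33) and the lipopolysaccharide-binding protein gene *Lbp* (1.32) had the same 2 highest mice. So did *Ace*, the angiotensin-converting enzyme (1.16), the collagen *Col8a1* (1.16), the procollagen enhancer *Pcolce* (1.09), the zinc transporter *Slc39a4* (1.07) and *Tcea3*, a transcription elongation factor (1.00).
Probes of a gene could disagree. The cation channel gene *Trpm3* had an SD of 1.23 at its brightest probe and of 0.14 to 0.37 at 3 others. *Sema3b*, among the 30 genes with the largest SD, did not pass (0.96, adjusted p = 0.0541). Named after their values were seen, the anion exchanger *Slc4a2* (0.66), the copper transporter *Slc31a1* (0.62) and the carbonic anhydrases *Car12* (0.53) and *Car14* (0.60) also had mouse 1 highest and mouse 3 next. The other tested probes of *Car12* (0.52) and *Car14* (0.29) did not pass.

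Genes of ependymal cells and motile cilia formed a related group in which mouse 3 was highest. *Dynlrb2*, a dynein light chain, had signals of 8.04, 7.38, 9.04, 6.92, 6.52 and 7.08 in mice 1 to 6. *Mlf1*, known to be expressed in ciliated cells, had 7.18, 5.73, 7.84, 5.89, 5.64 and 5.64. Mouse 3 was highest for both and mouse 1 next, while mouse 5 or mouse 6 was lowest. Of 16 tested members, 6 were variable, against 0.823% of all genes. They were these 2, *Cfap126* (SD 0.89), the tektin *Tekt1* (0.76), the radial spoke gene *Rsph1* (0.71) and *Rarres2*, the chemerin gene (0.60). The other tested probes of *Rarres2* (0.56 and 0.15) and of *Tekt1* (0.69) did not pass. The median SD of the list was 0.602, and mouse 3 had the highest signal of 14 of the 16.
*Foxj1*, the regulator that switches on motile cilia genes, was detected in 4 mice (SD 0.53) and did not pass, nor did *Pifo* (0.80, adjusted p = 0.148). None of the 16 was variable after centring each chip. Without mouse 3, 1 member passed, without mouse 1, 3 passed, without mouse 5, 4 passed, without mice 1 and 3, 0, and with median scaling of the arrays, 0.
The RFX factors work with *Foxj1* at the promoters of cilia genes and bind the X-box, whose core reads GTTGCC. Promoters were read from RefSeq's GRCm38.p6 table of 250 bases before to 50 after each start. Of 4 variable members with a promoter there, 3 held this motif and are shown in 30 bases around it. The core is in capitals on either strand (GGCAAC when reversed).
*Dynlrb2*, chr8:116504952-116504981, plus strand: acttcctgcctgGTTGCCtagcaacggggg
*Mlf1*, chr3:67373980-67374009, plus strand: gtgtttacagagGTTGCCatagcagccgag
*Tekt1*, chr11:72361890-72361919, minus strand: agGGCAACgttgcgtccgtccgGTTGCCat
The core stood 51 bases before the start of *Dynlrb2*, 105 before that of *Mlf1* and 35 before that of *Tekt1*. It was in the promoters of 7 of 12 tested cilia genes that the table holds and in 14.1% of 27025 genes. A match of these letters is a description and does not show binding.

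Genes of meningeal and perivascular fibroblasts were highest in mice 3 and 6. *Ogn*, the matrix proteoglycan osteoglycin, had signals of 8.05, 7.14, 8.59, 6.89, 7.17 and 8.85, with mice 3 and 6 above the rest. *Slc6a13*, the GABA transporter GAT2, had 7.70, 7.85, 8.62, 7.47, 7.46 and 9.28, with the same pair highest. *Igf2*, insulin-like growth factor 2, which the choroid plexus also expresses, had 13.30, 11.39, 12.64, 11.17, 11.13 and 12.49. Its 3 high mice, 1, 3 and 6, lay at least 2.15-fold above the other 3, a split that was seen in the values and not tested. The spread of *Igf2* over all mice passed (adjusted p = 3.49e-05 in limma's variance test).
Of 15 tested members, with a median SD of 0.613, 7 were variable, against 0.823% of all genes. They were the anion transporter *Slc22a6* (0.92), *Igf2* (0.91), *Ogn* (0.83), *Slc6a13* (0.73), and, named after their values were seen, the prostaglandin D synthase *Ptgds* (0.72) and the matrix Gla protein gene *Mgp* (0.72), with decorin, *Dcn* (0.67). Mouse 6 was highest in 7 members and mouse 3 in 6. All 7 were also variable after centring each chip. *Lum* (0.37) and the collagen *Col1a1* (0.32, detected in 4 mice) did not pass. Without single mice 5 to 7 members passed (5 without mouse 6), without mice 1 and 3, 6 passed, and with median scaling, 3.

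**Figure D3:**
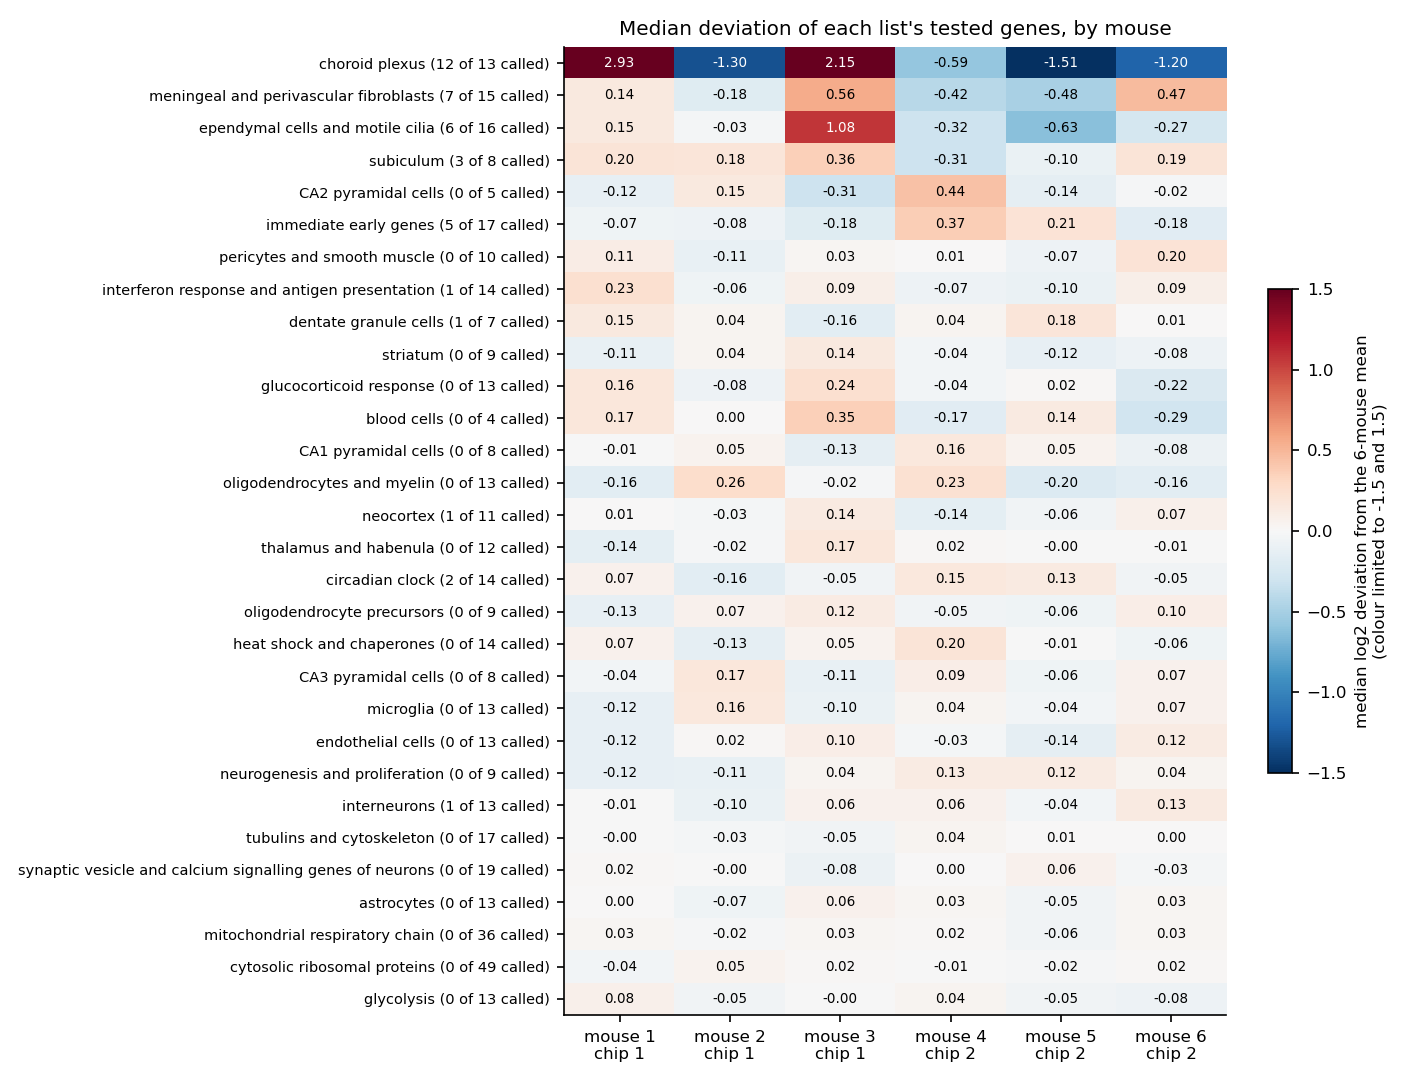
Median log2 deviation from the mean of 6 mice for each list's tested genes (rows, sorted by median SD, with the number variable, marked as called) in each mouse (columns), red for high and blue for low. The choroid plexus row runs from −1.51 in mouse 5 to 2.93 in mouse 1, the cilia row peaks at 1.08 in mouse 3, and rows of astrocytes, ribosomes and glycolysis stay near 0.

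A second set of 21 variable genes, 23.3% against 8.54% of all genes, had mice 3 and 6 highest. The set is made by rank alone. It holds *Tshz2* and *Slc17a6*, described below, in which mouse 4 was low and the other mice lay close together. All 21 were also variable after centring each chip. *Calb2*, which encodes calretinin, a calcium-binding protein of some interneurons and of mossy cells, had signals of 10.71, 10.39, 12.09, 9.94, 10.71 and 11.48. Mouse 3 lay 4.44-fold above mouse 4, the lowest, and a second probe had an SD of 0.94. The other 12 tested interneuron genes did not pass, among them *Gad1* (0.20), *Gad2* (0.17) and *Slc32a1* (0.082) of GABA synthesis and transport, *Cort* (0.26) and *Vip* (0.32).
*Trhr*, the receptor of thyrotropin-releasing hormone, had signals of 6.46, 5.23, 8.02, 6.61, 6.43 and 8.13, detected in 5 mice. Its 2 high mice, 3 and 6, lay at least 2.66-fold above the others. *Slc47a1*, an organic cation exporter, had 6.75, 6.23, 8.19, 6.97, 5.49 and 7.98. *Glp2r* (SD 0.96), the receptor of glucagon-like peptide 2, the sphingosine kinase *Sphk1* (0.87) and *Dio3* (0.80), which inactivates thyroid hormone, shared the pair of mice. *Cd74*, the invariant chain of antigen presentation, had 6.98, 5.70, 7.07, 5.24, 5.24 and 7.10, high in mice 1, 3 and 6 and low in the rest. It was the 1 variable gene of 14 in the interferon and antigen presentation list, and *H2-Ab1* (0.74, adjusted p = 0.173), *Bst2* (0.58) and *Ifit3* (0.36) did not pass. *Cd74* was not variable without mouse 1, mouse 5 or mouse 6.
*Fam180a* (adjusted p = 0.0815) and the complement gene *C2* (0.0533), which were among the genes with the largest SD after centring each chip, did not pass before centring. After centring, *C2* passed (adjusted p = 0.0433 in limma's variance test) and *Fam180a* did not (0.0837).

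Of 8 tested genes of the subiculum, 3 were variable, against 0.823% of all genes, and 2 of the 3 were set apart by mouse 4. *Tshz2*, a zinc finger factor, had signals of 9.18, 9.12, 9.32, 7.15, 9.01 and 9.18, and *Slc17a6* (VGLUT2), the vesicular glutamate transporter, had 10.69, 10.71, 10.90, 9.48, 10.77 and 10.86. In the other 5 mice each gene lay within a narrow band, 3.63-fold and 2.31-fold or more above mouse 4. All 3 tested probes of *Tshz2* and both of *Slc17a6* were variable. The brighter *Slc17a6* probe, shown here, stands under *Tshz2* in the study's supplement and under *Slc17a6* in the platform annotation used here. The dimmer probe, which both name *Slc17a6*, had an SD of 0.47, with mouse 4 lowest at 9.43. Without mouse 4 the SD of *Tshz2* was 0.11 and that of *Slc17a6* 0.094, both under the median of all genes, and neither passed.
*Dlk1*, a Notch ligand relative and the third member, had a different order, 7.52, 6.74, 8.55, 8.00, 7.19 and 8.45, lowest in mouse 2, and was not variable without that mouse. A second, dimmer probe of *Dlk1* (SD 0.82) did not pass. *Scn4b*, a sodium channel subunit, had 8.31, 8.57, 6.99, 7.90, 7.92 and 7.58 and did not pass (adjusted p = 0.0864). *Fn1* (SD 0.40), *Nts* (0.35) and *Ly6g6e* (0.23) did not pass either. The median SD of the list was 0.469, and with median scaling 0 members passed.

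Immediate early genes, which neurons switch on within minutes of activity, were highest in mouse 4. *Fos* had signals of 7.42, 7.60, 7.74, 9.65, 8.86 and 7.39. *Arc*, a regulator of synaptic strength, had 9.78, 9.51, 8.91, 10.83, 10.01 and 9.16. *Egr2*, a zinc finger factor, had 5.57, 6.11, 6.54, 7.79, 7.17 and 5.86. For all 3, mouse 4 was highest and mouse 5 next. The pair lay at least 2.16-fold above the others for *Fos* and at least 1.17-fold for *Arc*.
Of 17 tested members, 5 were variable, against 0.823% of all genes. They were these 3 and, named after their values were seen, *Egr1* (SD 0.46) and *Egr4* (0.48). Mice 4 and 5 both lay on chip 2, and after centring each chip 3 members passed. *Egr2* was not among them (adjusted p = 0.0899 in limma's variance test). With median scaling 2 members passed, and 2 with the variance model that was not robust to outlying probes. Mouse 4 had the highest signal of 11 of the 17, and the median SD was 0.300. *Fosb* (0.66, adjusted p = 0.0954) and *Fosl2* (0.23) did not pass. Without mouse 4, 1 member passed, *Egr1*, and without mice 1 and 3, 3 of the 5 passed, *Fos*, *Arc* and *Egr2*, with *Fosb* besides (adjusted p = 0.0430 in limma). The 7 variable genes with mice 4 and 5 highest, 7.78% against 8.13% of all genes, were these 5 with *Nptx2* (0.62), a pentraxin of excitatory synapses, and *Rasl11b* (0.47).
Serum response factor binds the CArG box. It was searched on either strand as a run of A or T bases between CC and GG. Only the 250 bases before and 50 after each start were searched. The box stood in the promoter of 1 of 14 tested members that the table holds, *Egr2*, and of 1.81% of all genes. The windows of its 2 annotated starts are shown with the box in capitals, 72 bases before each start.
*Egr2*, chr10:67537484-67537513, plus strand: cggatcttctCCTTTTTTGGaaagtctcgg
*Egr2*, chr10:67537787-67537816, plus strand: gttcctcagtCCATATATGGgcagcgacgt

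Of 14 tested genes of the circadian clock, 2 were variable, against 0.823% of all genes, and none after centring each chip. *Dbp*, a clock-controlled factor, had signals of 12.75, 12.56, 12.62, 11.53, 12.34 and 12.09. *Ciart*, a repressor in the clock, had 8.61, 8.74, 8.72, 7.41, 8.52 and 7.81. Mouse 4 was lowest and mouse 6 next for both, and neither was variable without mouse 4 or without mouse 1. The other tested probes of *Ciart* (SD 0.50 and 0.45) did not pass. *Tef* (SD 0.33), *Hlf* (0.36), *Per1* (0.18), *Per2* (0.13) and *Per3* (0.27) did not pass. The E-box that CLOCK and BMAL1 bind, CACGTG, stood in the promoters of 3 of 12 clock genes and in 8.09% of all genes. *Ciart* held it in 3 places and *Dbp* in none, and 2 of the matches in *Ciart* are shown in capitals.
*Ciart*, chr3:95882262-95882291, minus strand: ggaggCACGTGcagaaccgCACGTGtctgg

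Some variable genes followed patterns of their own. *Fam171a1* had signals of 6.39, 8.70, 6.82, 8.82, 8.70 and 8.85. It was low in mice 1 and 3, and the other 4 lay at least 3.69-fold above them and close to each other. A second probe was also variable (SD 0.94). Without mice 1 and 3 the SD fell to 0.078. *Xlr4a*, of an X-linked gene family whose copies may share its probe, had signals of 6.82, 7.01, 9.22, 8.97, 9.28 and 8.25. Mice 1 and 2 were low and the other 4 at least 2.36-fold higher.
*Lct*, the lactase gene, used here as a marker of dentate granule cells, had 8.51, 8.64, 6.98, 8.18, 8.15 and 7.62, lowest in mouse 3 and next in mouse 6. It was the 1 variable gene of 7 in its list, while *C1ql2* (SD 0.16), *Prox1* (0.21), *Rfx3* (0.37), *Fam163b* (0.32) and *Trpc6* (0.28) did not pass. *Ccn2*, a matrix-associated growth factor gene that marks the deepest layer of neocortex, was the 1 of 11 in the neocortex list (0.52, highest in mice 6 and 3). A second probe of *Ccn2* (0.35) did not pass. *Ccn2* was not variable without mouse 4 or mouse 6, nor *Lct* without mouse 1, 2 or 3. *Lamp5* (0.090), *Cux2* (0.12) and *Rorb* (0.24) of that list did not pass.

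**Figure D4:**
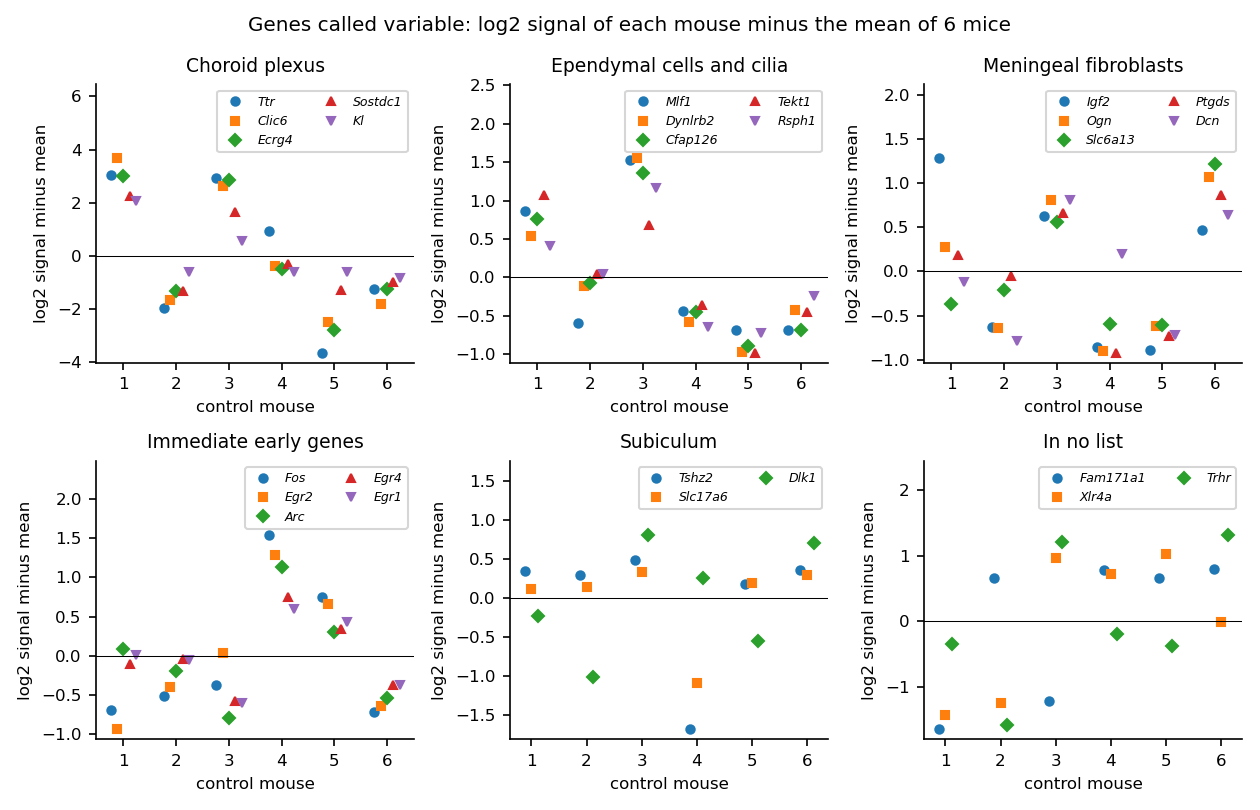
Log2 signal of each control mouse minus the mean of 6 mice (y axis) for variable genes of 5 lists and 3 genes in no list (panels), by mouse (x axis). Choroid plexus genes are high in mice 1 and 3, cilia genes in mouse 3, meningeal genes in mice 3 and 6 and immediate early genes in mouse 4, and *Tshz2* and *Slc17a6* are low in mouse 4.

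The lists of glia, vessels and blood had no variable gene. Of astrocytes 13 genes were tested (median SD 0.120), with *Gfap* at 11.82 ± 0.10, and of oligodendrocytes 13 (0.230), with *Mag* at 12.28 ± 0.29. The oligodendrocyte genes still moved together by a small amount. Mouse 2 lay above the mean in 13 of 13 (median deviation 0.26) and mouse 4 in 12 (0.23). Mouse 5 lay above it in 0 (−0.20). Precursors of oligodendrocytes had 9 genes (0.217), microglia 13 (0.191) and endothelial cells 13 (0.190). Pericytes and smooth muscle had 10 (0.285) and blood cells 4 (0.251). *P2ry12* of microglia (0.53, adjusted p = 0.254) and *Acta2* of smooth muscle (0.44) were among the most spread of these and did not pass. Without mouse 3, 1 gene of pericytes passed.
No pyramidal cell gene passed either, of 8 in CA1 (median SD 0.236), 5 in CA2 (0.338) and 8 in CA3 (0.195), where *Prkcd* had the largest SD (0.47). Without mouse 5 or mouse 6, 1 gene of CA1 passed. The same held for 12 genes of thalamus and habenula (0.224), 9 of the striatum (0.268), 9 of neurogenesis (0.171), 13 of the glucocorticoid response (0.261) and 14 chaperones (0.203). *Plin4* (0.77, adjusted p = 0.165) and *Sult1a1* (0.52, adjusted p = 0.0561) had the largest SDs of the glucocorticoid list. No gene of the ribosomal, respiratory chain, synaptic, cytoskeleton and glycolysis lists passed. In all, 39 of the 90 variable genes were in a list and 51 in none.

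Centring each BeadChip on its mean left most of this spread in place. After centring, 85 probes (0.435%) and 62 genes (0.567%) passed, 60 of them among the 90, and the median SD was 0.159 against 0.171. *Ttr* had an SD of 2.59 after centring and *Clic6* of 2.14. Of the 30 genes with the largest SD, 24 stayed among the top 30. Of 51 genes with mice 1 and 3 highest, both on chip 1, 27 passed after centring, and 11 of 12 of the choroid plexus, all but *Calml4*. Since different mice lay on each chip, a chip difference and a difference between these mice cannot be told apart.
Between the chips, 0 probes were higher (0%) and 3 lower (0.0153%) on chip 2 in limma, while 1199 were higher and 878 lower at an unadjusted p under 0.05. The kinase gene *Bmx* had signals of 7.31, 7.39, 6.98, 6.09, 5.30 and 5.70, a difference of −1.53 (SE 0.22, adjusted p = 0.0328). *1700007K13Rik* had a difference of −1.52 (adjusted p = 0.0377). *Krt8* (−1.43), *H2-Q1* (−1.22) and *Ctnnal1* (−0.89) did not pass (adjusted p = 0.0685 for each). Of the higher genes *Pcmtd2* (0.84), the methyltransferase *Setd7* (0.60), *Ndfip2* (0.49), the proton pump subunit *Atp6v1a* (0.41) and *Zfp365* (0.39) had the smallest p and did not pass. The count of 3 ran from 0 without mouse 1 to 96 without mouse 2.

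**Figure D5:**
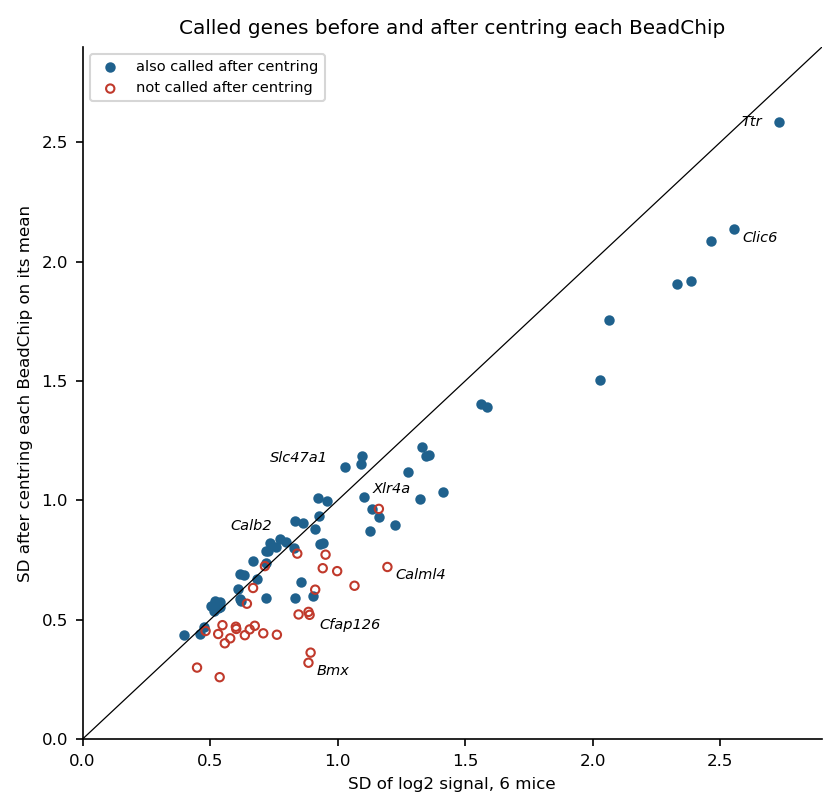
SD of the 90 variable genes over 6 mice (x axis) against the SD after centring each BeadChip on its mean (y axis), with the line of equal values, filled blue for the 60 genes that passed both ways and open red for the others. Most points lie near the line, *Ttr* at 2.73 and 2.59, while *Bmx* falls from 0.89 to 0.32.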

How the data were processed

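Total hippocampal RNA of 6 control mice was amplified by the authors and hybridised to MouseWG-6 v2.0 BeadChips. The deposited values are probe intensity before and after quantile normalisation in GenomeStudio 1.9.0, named in the submitters' processing notes, and a detection p-value per probe, also deposited. The intensity before normalisation was used here. Arrays carry no read depth, and 6 arrays limit the precision.

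With limma 3.58.1 in R 4.3.3, normexp removed the background, estimated through the detection p-values (offset 16), and the 6 control arrays were quantile normalised and put on the log2 scale. The offset makes the SD of dim probes smaller. Probes with a detection p under 0.05 in at least 3 mice were kept. Of 45281 probes, 34885 had 1 gene symbol, 18 several and 10378 none in GEO's platform annotation, and 34807 were found by gene identifier in RefSeq's table. Each gene was read at its brightest probe. The residual variance of each probe (5 degrees of freedom, or 4 after centring each chip) was set against limma's robust prior with a trend on mean signal, by a one-sided test for larger variance. Chips were compared with limma's moderated test. P-values were adjusted by Benjamini-Hochberg over 19560 probes. The script was tested on simulated data.

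Named genes were the 25 brightest, the 30 with the largest SD, the next 10 after centring, the 5 higher and 5 lower with the smallest p between chips, the 10 most stable, and per list up to 4 with the largest SD and the first 3 detected. *F5*, *Otx2*, *Slc4a2*, *Slc31a1*, *Car12*, *Car14*, *Rsph1*, *Rarres2*, *Ptgds*, *Mgp*, *Egr1*, *Egr4*, *Nptx2* and *Rasl11b* fall outside this rule and were chosen after their values were seen. The members and the lists were chosen with earlier results of these data known. A list of 8 pituitary genes had no tested member. Other normalisations, offsets, filters and variance models, and leaving out mice, were tried as alternatives.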

Additional observations from a re-analysis of the deposited data

Results flagged for a closer look

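Of 133 values followed, 4 had 1 mouse whose gap to its nearest neighbour, as a share of the range of the 6 mice, was above Dixon's critical ratio for 6 values. Chance alone does this in about 1 in 20 groups. For *Tshz2* the ratio was 0.8562 and for *Slc17a6* 0.85, both with mouse 4 lowest. For *Efcab6*, a variable gene with an EF-hand calcium-binding protein, the ratio was 0.7156, with mouse 3 lowest at 6.72 and the next mouse at 8.15. Without mouse 3 it was not variable (SD 0.25, adjusted p = 0.978 in limma). A second probe of *Efcab6* (SD 0.68) did not pass over all 6 mice. For *Cst3* the ratio was 0.6383, with mouse 3 at 14.94 and the next at 15.07, an SD of 0.074 that did not pass.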

How the results depend on the processing

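No paired analysis was possible because the control mice form 1 group. The counts of variable genes (90) and probes (123) were 35 and 48 with median scaling, 43 and 57 with the variance model that was not robust, 136 and 196 with no detection filter, and 27 and 40 without mice 1 and 3. Leaving out 1 mouse gave 55 to 87 genes and 77 to 118 probes, the lowest without mouse 1. After centring each chip, the 85 probes became 133 with no detection filter, 50 with the model that was not robust, and 35 (without mouse 2) to 85 when 1 mouse was left out. The 3 probes that differed between the chips became 0 with median scaling or the model that was not robust, 1 with no background correction, the authors' normalised values or probes detected in all 6 mice, 9 with no detection filter, and 0 to 96 when 1 mouse was left out. Of the 30 genes with the largest SD, 14 were shared with the 30 of largest median absolute deviation, 15 with those of probes detected in all 6 mice, 9 without mice 1 and 3, and 21 to 29 when 1 mouse was left out. The causes were not tested.

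Normalising all 12 arrays together, the larger offset of 50, no background correction and the authors' values gave 86 to 93 variable genes. Of 93 genes followed singly, 55 fell below the threshold with median scaling, which raised the median SD to 0.205, and 47 with the model that was not robust. The 9 genes that passed in all 16 settings were *Ttr*, *Igf2*, *Ptgds*, *Dcn*, *Calb2*, *Slc13a4*, *Ecrg4*, *Xlr4a* and *Slc47a1*. Of the 25 brightest genes, 24 or 25 were shared under every normalisation, offset and filter tried. Dim probes, with a median SD of 0.294, limit what can be called variable at low signal.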

Other observations

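None of the pituitary genes was detected in 3 mice. *Gh*, growth hormone, had a log2 signal of 7.66 in mouse 6 and of 4.53 to 4.79 in the others. *Prl*, prolactin, had 6.36 in mouse 6, the 1 mouse in which either was detected. Neither was tested.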
